A study of Mus musculus with 10 samples.

Results

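The 44 genes examined here are the annotated mouse genes whose symbols have the form of a collagen alpha chain (Col1a1, Col4a2 and so on), out of 32285 genes counted. Their levels were followed across the lineages of the developing mouse incisor at 3 embryonic stages (E11.5, then E14.5, then E16.5). Cells came from wild type NMRI embryos and were released with Collagenase P, from the whole mandible at the earliest stage and from buds of the lower incisor at both later stages. Stage is therefore tied to the dissected tissue as well as to the library, and the 3 cannot be told apart in a comparison between stages. The Y-linked gene Ddx3y had 0 UMIs in the whole E11.5 matrix, 588 at E14.5 and 720 at E16.5, so the sex of the embryos may differ with stage as well and cannot be told apart from it. In stage order the labels name 4, 4 and 2 samples, but each stage has 1 matrix with 1 barcode suffix and no map from cells to samples. How many of the labelled samples a matrix holds is not known, and each stage counts as 1 sample. No p-value can be given, and the intervals printed here are 95% intervals that cover counting error only.

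Collagens are trimeric extracellular matrix proteins. Fibrillar chains assemble into the fibrils of loose mesenchyme, bone matrix and dentin, and fibril-associated chains decorate their surface. Type IV chains form the sheet of the basement membrane that separates dental epithelium from mesenchyme and wraps vessels, while types VII and XVII anchor epithelium to it. Tooth formation depends on signals that pass across that membrane.

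The matrices held 8708, 8192 and 5719 barcodes at the 3 stages in order, of which 6573, 6091 and 4511 had at least 700 detected genes and at most 20% mitochondrial unique molecular identifiers (UMIs, 1 per captured transcript) and were used. Median depth was 5664, 3471 and 6260 UMIs per cell. Between 13 and 17 barcodes were shared by any pair of stages. A doublet caller marked 0, 0 and 2 cells, too few to have worked, so doublets were not removed. The lineage of each cell was called from non-collagen markers, such as Epcam and Krt14 for epithelium, Prrx1 and Twist1 for mesenchyme, and Cdh5 and Kdr for endothelium. This gave 5588, 3939 and 2128 mesenchymal cells, 908 and 1670 epithelial cells at E14.5 and E16.5, and 73, 151 and 116 endothelial cells. Only 11 cells were called epithelial at E11.5, and no epithelial level is given there. The 78 cells called mural at E11.5 did not bear out that label and were left out of every comparison after their markers were seen: 75 of them had exactly 2 mural markers, Ndufa4l2 and Higd1b were at 0, and their summed mesenchyme markers stood at 2411 CPM (UMIs of a gene in 1000000 UMIs of the group), against 2273 CPM in mesenchyme. Mural cells at E16.5 (131 cells) and osteogenic cells at E16.5 (83 cells) were kept, with their markers raised. Many of them rested on few markers: requiring 3 left 53 mural cells and under 50 osteogenic cells. Both groups as called also carried mesenchyme markers, at 1676 CPM and 1159 CPM against 1702 CPM in mesenchyme.

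The upstream sequences of 4 members are shown because their genes mark the patterns described below: Col8a1 the change with stage in mesenchyme, Col15a1 the endothelium, Col17a1 the epithelium, and Col4a5 a head-to-head gene pair. They are RefSeq windows of GRCm38.p6, cut to end at the base before the first annotated start, and read 5′ to 3′ on the strand of the gene. Capitals mark matches, on either strand, to the TATA box TATAAA, the CCAAT box CCAAT and the GC box GGGCGG.
Col8a1, chr16:57754738-57754987, minus strand: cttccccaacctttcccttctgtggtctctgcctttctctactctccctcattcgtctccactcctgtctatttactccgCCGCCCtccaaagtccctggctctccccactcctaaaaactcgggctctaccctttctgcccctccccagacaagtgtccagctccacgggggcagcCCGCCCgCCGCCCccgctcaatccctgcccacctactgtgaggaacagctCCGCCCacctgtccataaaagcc
Col15a1, chr4:47207762-47208011, plus strand: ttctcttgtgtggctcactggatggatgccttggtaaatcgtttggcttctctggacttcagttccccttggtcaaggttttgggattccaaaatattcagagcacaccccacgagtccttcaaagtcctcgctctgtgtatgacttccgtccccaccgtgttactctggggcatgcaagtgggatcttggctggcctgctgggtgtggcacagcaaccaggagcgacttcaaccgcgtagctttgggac
Col17a1, chr19:47692095-47692292, minus strand: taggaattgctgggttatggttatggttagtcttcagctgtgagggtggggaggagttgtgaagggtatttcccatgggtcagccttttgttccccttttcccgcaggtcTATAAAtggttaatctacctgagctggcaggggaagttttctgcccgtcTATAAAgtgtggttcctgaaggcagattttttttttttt
Col4a5, chrX:141475169-141475384, plus strand: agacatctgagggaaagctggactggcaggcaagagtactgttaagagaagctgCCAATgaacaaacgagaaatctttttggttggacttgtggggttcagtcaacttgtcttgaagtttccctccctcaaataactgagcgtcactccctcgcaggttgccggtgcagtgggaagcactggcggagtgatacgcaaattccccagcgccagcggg

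The Col8a1 window held 4 GC boxes, and 32.7% of all 32851 windows of the same 250 bases held at least 1. The Col17a1 window held 2 TATA boxes, against 9.08% of all windows of its 198 bases with any. The Col4a5 window held 1 CCAAT box, as did 30.5% of windows of 216 bases, and the Col15a1 window held none of the 3 motifs. A match is a run of letters and no evidence of binding. Of the 44 members, 35 had a RefSeq window. Several members sit beside each other in the genome: 8 pairs lie within 100000 bases, 3 of them head to head. The annotated starts of Col4a1 and Col4a2 on chromosome 8 overlap by 22 bases, Col4a3 and Col4a4 on chromosome 1 are 71 bases apart, and Col4a5 and Col4a6 on chromosome X are 1308 bases apart. Col3a1 and Col5a2 on chromosome 1 lie tail to tail, 24614 bases apart.

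Collagen transcripts made up a larger share of the mesenchymal library at each later stage. Their summed level in mesenchyme was, in stage order, 1377 CPM (1366 to 1388), 3851 CPM (3821 to 3882) and 5602 CPM (5563 to 5640). Endothelium held 2897, 3797 and 4555 CPM, and epithelium 815 CPM at E14.5 and 1037 CPM at E16.5. Among groups of 50 or more cells the largest sums were in cells with mural markers (7142 CPM) and in osteogenic cells (5916 CPM) at E16.5; 38 osteogenic cells at E14.5 held 5948 CPM. Blood cells, which make little or no interstitial collagen, were taken as a measure of the level that free RNA or stray cells can add, though collagen expression of their own was not tested: 98.2 CPM in 106 erythroid cells and 95.6 CPM in 51 immune cells at E11.5, 312 CPM in 129 immune cells at E14.5, and 429 CPM in 26 immune cells at E16.5. This background rested on few cells and moved with the settings. In E16.5 immune cells it was 98.1 CPM when 3 markers were required (25 cells) and 259 CPM with equal weight per cell. It was 631 CPM there with lineages called by cluster (29 cells). In E14.5 immune cells it was 188 CPM once the 5% of cells scoring highest as doublets were dropped, and 334 CPM with lineages by cluster. Over the settings run it lay between 63.3 and 402 CPM in E11.5 erythroid cells, and between 92.5 and 346 CPM in E11.5 immune cells.

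Of the 44 members, 34 reached 10 CPM in at least 1 of the 14 groups of 50 or more cells. The other 10, Col11a2, Col19a1, Col20a1, Col4a3, Col4a4, Col10a1, Col6a4, Col6a5, Col6a6 and Col28a1, stayed at or below 2.99 CPM there. All 44 had at least 1 UMI. Ranked by the highest level among groups of 50 or more cells, 9 members peaked in mesenchyme and 9 in cells with mural markers. A further 6 peaked in osteogenic cells, 5 in epithelium, 4 in endothelium and 1 in muscle, and no member peaked in erythroid or immune cells. Some of these ranks lay within counting error. Col4a5 stood at 23.2 CPM in mural cells (15.8 to 32.9) and 23.0 CPM in E16.5 mesenchyme. Col13a1 stood at 22.3 CPM in muscle (9.62 to 43.9, 8 UMIs) and 20.3 CPM in E14.5 mesenchyme. Col5a1, Col9a2 and Col12a1, highest in osteogenic cells, were likewise close to the next group. Smaller groups were not ranked, and some held more. In 38 osteogenic cells at E14.5, Col13a1 stood at 115 CPM (75.0 to 168) and Col22a1, ranked to epithelium, at 53.0 CPM. The 3′ tags count each transcript once whatever its length. The plot of all groups shows this division: a broad band of fibrillar and type VI chains over mesenchyme and its relatives, the highest values of Col4a1, Col4a2, Col15a1 and Col18a1 in endothelium, and the highest values of types VII and XVII in epithelium. Col4a1 and Col4a2 were also high in mural cells, and Col18a1 in epithelium. The type IV chains Col4a5 and Col4a6 differed: endothelium held at most 2.71 CPM of Col4a5 and 0 UMIs of Col4a6.

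**Figure D1:**
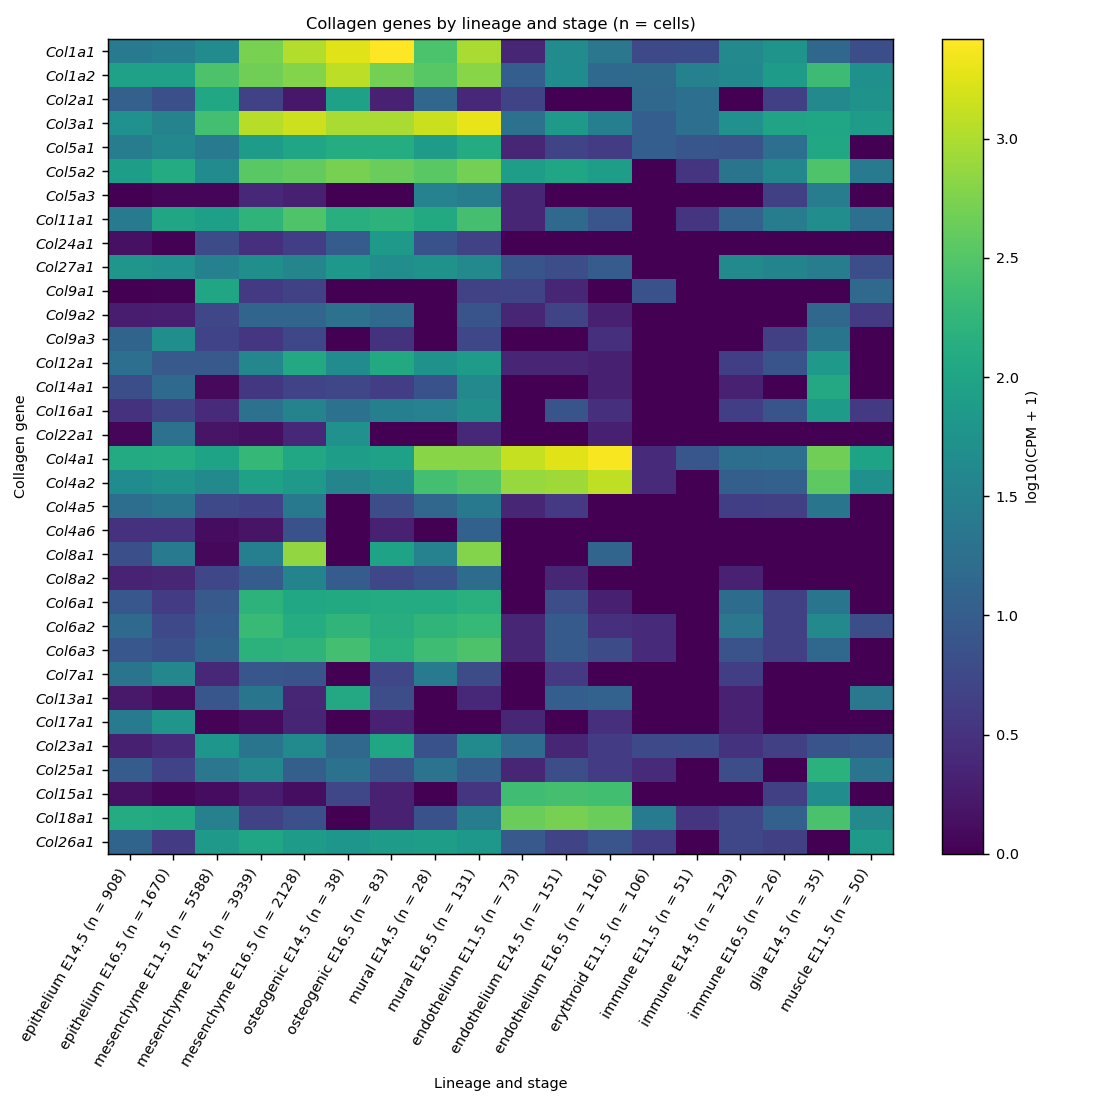
Level of each of the 34 collagen genes with at least 10 CPM in some group of 50 or more cells (rows) in each lineage and stage (columns, with cell numbers), as log10 of CPM plus 1. Col4a1 is brightest in endothelium (2447 CPM at E16.5) and Col1a1 in osteogenic cells (2607 CPM at E16.5). The highest immune value is 98.0 CPM (Col3a1 at E16.5) and the highest erythroid value 25.3 CPM (Col18a1 at E11.5).

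The first comparison asked how the dental epithelium and its surrounding mesenchyme divide the collagen genes between them. Most chains were lower in epithelium, and a small group, led by the transmembrane collagen Col17a1 and the basement membrane collagen Col18a1, was higher. A member was called higher or lower when the log2 ratio, with 10 CPM added to both sides, reached 1 in either direction and the mean of both groups was at least 10 CPM. At E14.5, 23 members could be tested: 2 were higher in epithelium (4.33% of all 7708 genes tested were) and 15 lower (5.09% of all genes). At E16.5, 24 could be tested, with 5 higher (4.73% of all 8253 genes) and 15 lower (5.61%). The median log2 ratio of the members tested was -1.34 at E14.5 and -1.60 at E16.5, against 0.02 and 0.06 over all genes.

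Among the anchoring components, Col17a1, a transmembrane collagen of hemidesmosomes, stood at 25.4 CPM in epithelium at E14.5 and 60.2 CPM at E16.5. In mesenchyme it stood, in stage order, at 0.0719, 0.2502 and 1.23 CPM. At E14.5 the ratio between the tissues was 101-fold (38.9 to 376), and at E16.5 it was 49.1-fold (30.9 to 83.2). At least 1 Col17a1 UMI was found in 34.4% of epithelial cells at E16.5 (median depth 7006 UMIs) and in 0 of 26 immune cells (median 9674), whose exact interval reaches 13.2%. With every cell thinned to 2000 UMIs the share in epithelium was 11.6%. Col7a1, the chain of the anchoring fibrils under the basement membrane, stood at 19.7 CPM and 37.6 CPM in epithelium and at 7.13 and 6.81 CPM in mesenchyme. It was called higher at E16.5 (5.52-fold, 4.48 to 6.88).

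Col18a1, whose C-terminal fragment is endostatin, stood at 125 CPM in epithelium at E14.5 and 117 CPM at E16.5, against 3.75 and 5.79 CPM in mesenchyme, a 33.3-fold (25.6 to 44.0) and 20.2-fold (16.2 to 25.4) ratio. The basement membrane chains Col4a1 and Col4a2 were not called either way. Col4a1 stood at 123 CPM and 124 CPM in epithelium and 189 CPM and 110.2 CPM in mesenchyme, and Col4a2 at 44.3 and 54.2 CPM against 87.9 and 68.9 CPM. Their X-linked relative Col4a5 was 4.10-fold (2.99 to 5.68) higher in epithelium at E14.5 without the added CPM (16.2 against 3.94 CPM), below the fold used for calls once 10 CPM was added (log2 ratio 0.91), and did not differ by that measure at E16.5 (19.96 against 23.0 CPM).

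The fibril-associated chains Col9a3 and Col22a1 were called higher in E16.5 epithelium. Col9a3, a type IX chain best known from cartilage, went from 11.8 CPM at E14.5 to 49.3 CPM at E16.5 in epithelium and stood at 2.50 and 4.56 CPM in mesenchyme. Its partner Col9a1 had 1 UMI in all E16.5 epithelial cells, against 923 for Col9a3. Col22a1, found at tissue junctions such as those of muscle and tendon, had 1 UMI in E14.5 epithelium and 350 at E16.5 (18.7 CPM, against 1.43 CPM in mesenchyme, 13.1-fold, 8.41 to 21.4).

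The interstitial fibril chains were lower in epithelium, and 6 of the 7 fibrillar genes tested were called so at each stage. The fibrillar chain Col2a1, below the level needed for a call, went the other way. It stood at 10.05 CPM (7.82 to 12.7) and 5.87 CPM (4.83 to 7.08) in epithelium, against 3.63 and 0.681 CPM in mesenchyme. Col1a1, the main chain of type I collagen, stood at 23.5 and 28.9 CPM in epithelium against 528 and 1049 CPM in mesenchyme, 22.5-fold (19.3 to 26.5) and 36.2-fold (33.3 to 39.6) lower. Col3a1, the chain of type III collagen of soft tissue, stood at 52.3 and 32.6 CPM against 1111 and 1426 CPM. Immune cells held 40.1 CPM (E14.5) and 57.4 CPM (E16.5, 26 cells) of Col1a1 and 52.1 and 98.0 CPM of Col3a1, so the epithelial values were below or, for Col3a1 at E14.5, level with theirs. At E14.5 Col1a1 was seen in 10.6% of epithelial cells (median depth 4580 UMIs) and 10.1% of immune cells (median 6542 UMIs), and in 4.81% and 8.20% once cells were thinned. The immune level at E16.5 came from 17 Col1a1 and 29 Col3a1 UMIs. The summed immune level fell from 429 to 98.1 CPM with 3 markers and rose to 631 CPM with lineages by cluster. It was 188 CPM in place of 312 CPM at E14.5 without the cells of high doublet score. Whether epithelial cells express either gene therefore cannot be read from these values.

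Other fibrillar chains had epithelial levels above those of the immune cells as called, by a narrow margin for Col1a2 at E16.5. At that stage the immune intervals of Col1a2 (46.6 to 112.5 CPM) and Col5a1 (5.49 to 39.4 CPM, on 5 UMIs) held the epithelial values. So did that of Col27a1 (16.2 to 62.1 CPM). Col5a2, which sets fibril diameter with type I collagen, stood at 78.4 and 124 CPM in epithelium against 19.5 and 37.2 CPM in immune cells and 342 and 397 CPM in mesenchyme. Col11a1, a chain of cartilage fibrils, stood at 23.5 and then 105 CPM in epithelium, against 10.8 and 27.0 CPM in immune cells and 165 and 297 CPM in mesenchyme. Col1a2 stood at 89.0 and 90.1 CPM against 38.0 and 74.3 CPM in immune cells. Col5a1 stood at 26.7 and 37.8 CPM, against 6.51 and 16.9 CPM in immune cells and 76.9 and 101 CPM in mesenchyme. Col27a1, a fibrillar chain of cartilage and other tissues, was not called either way. It stood at 59.2 and 53.1 CPM (49.8 to 56.5 at E16.5) in epithelium and 49.9 and 34.4 CPM (31.5 to 37.5 at E16.5) in mesenchyme. Endothelium held 5.43 and 8.92 CPM. Immune cells held 42.3 and 33.8 CPM, near the mesenchymal level, whereas their Col3a1 at E14.5 was 52.1 CPM against 1111 CPM in mesenchyme. The source of their Col27a1 was not tested.

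All 3 type VI chains tested, which build beaded filaments around cells, were lower in epithelium at both stages. Col6a1 stood at 7.58 and 2.99 CPM in epithelium against 163 and 110.1 CPM in mesenchyme, Col6a2 at 13.8 and 4.75 CPM against 200.5 and 128 CPM, and Col6a3 at 7.58 and 5.82 CPM against 154 and 166 CPM. Immune cells held 15.2 CPM of Col6a1 and 21.7 CPM of Col6a2 at E14.5, above the epithelial values. The same direction held for the transmembrane chain Col23a1 (1.02 and 1.66 CPM against 19.95 and 41.7 CPM) and for Col26a1 (11.7 and 3.04 CPM against 101 and 73.9 CPM). Col16a1, a fibril-associated chain, stood at 2.19 and 3.95 CPM against 17.8 and 32.5 CPM. Col8a1 was called lower at both stages (5.83 and 23.7 CPM against 29.0 and 735 CPM). Col13a1 and Col25a1 were called only at E14.5 (0.728 and 8.89 CPM against 20.3 and 37.7 CPM). Col12a1 and Col8a2 were called only at E16.5 (8.11 and 1.33 CPM against 113 and 34.1 CPM). Each also stood lower at the other stage. There Col13a1 (0.267 against 1.36 CPM), Col25a1 (3.90 against 9.81 CPM) and Col8a2 (1.17 against 8.88 CPM) were below the level needed for a call. Col12a1 (16.6 against 36.7 CPM) fell short of the fold. Whether the stages differed in these calls was not tested. The fibril-associated Col14a1 stood at 5.68 and 13.8 CPM in epithelium and 2.56 and 3.82 CPM in mesenchyme, and Col9a2, a type IX chain, at 0.874 and 0.907 CPM against 12.1 and 12.1 CPM, both below the level needed for a call.

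**Figure D2:**
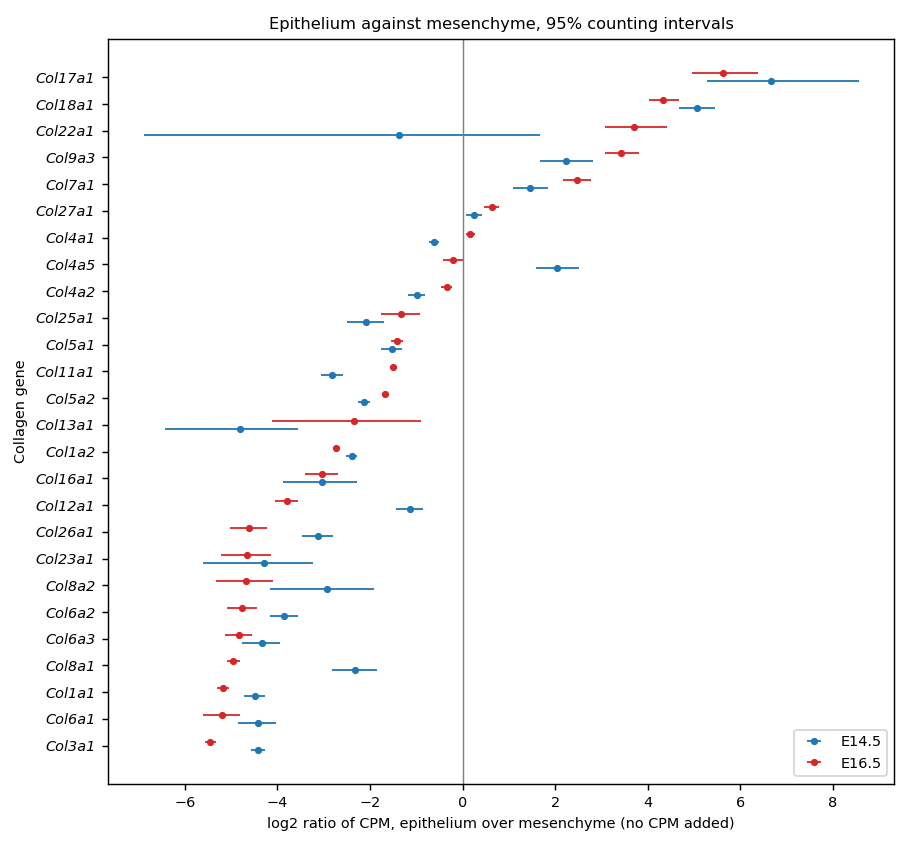
log2 ratio of CPM in epithelium over mesenchyme, without added CPM, at E14.5 (blue) and E16.5 (red) for each collagen gene that could be tested at either stage; points are ratios and bars 95% counting intervals. Col17a1 and Col18a1 lie farthest to the right at both stages, and at E16.5 Col3a1, Col6a1 and Col1a1 lie farthest to the left.

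The endothelium showed a repertoire unlike that of mesenchyme, which glial cells shared in part (given below). The same 4 members, Col4a1, Col4a2, Col15a1 and Col18a1, all chains of or beside the vascular basement membrane, were called higher than in mesenchyme at all 3 stages. They were 4 of 16, 21 and 21 members tested (10.7%, 10.2% and 9.64% of all genes were higher), and 11, 15 and 17 members were lower (7.21%, 7.95% and 9.08% of all genes). These calls rest on 73, 151 and 116 cells.

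Col4a1 stood at 1306, 1848 and 2447 CPM in endothelium at the 3 stages, and Col4a2 at 768, 844 and 1221 CPM. The Col4a1 ratio over mesenchyme was 13.6-fold (12.6 to 14.6), 9.79-fold (9.17 to 10.4) and 22.2-fold (20.8 to 23.7). Col4a1 was seen in 94.8% of endothelial cells at E16.5 and in 7.69% of immune cells. Col15a1, a basement membrane zone collagen of vessels and muscle, stood at 231, 252 and 239 CPM against 0.288, 0.876 and 0.341 CPM in mesenchyme, the widest ratio of any member between these tissues: 802-fold (447 to 1583), 288-fold (168 to 537) and 701-fold (296 to 2179). Epithelium held 0.437 and 0.160 CPM of Col15a1, and 54.8%, 58.3% and 69.8% of endothelial cells had a UMI (24.5%, 40.2% and 34.5% once thinned), against 0.235% of mesenchymal cells at E16.5. Col18a1, related to Col15a1 in structure, stood at 432, 511 and 427 CPM. Endothelium and epithelium both held Col18a1, whereas Col15a1 was near 0 in epithelium.

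Interstitial chains in endothelium lay near the blood cell level. Col1a1 stood at 1.35, 43.4 and 21.8 CPM and Col3a1 at 17.5, 67.8 and 28.7 CPM, against 4.78, 40.1 and 57.4 CPM and 16.7, 52.1 and 98.0 CPM in immune cells. Col5a2 was the exception among them. It stood at 81.0, 100.4 and 82.3 CPM in endothelium, above the 2.39, 19.5 and 37.2 CPM of immune cells, while its partner chain Col5a1 stood at 1.35, 4.07 and 2.97 CPM. Col8a1 had 0 UMIs in endothelium at E11.5 and E14.5 and 12 at E16.5 (11.9 CPM), when mesenchyme held 735 CPM. Col4a5 had 0 UMIs in E16.5 endothelium, which places it at least 7.75-fold lower than in mesenchyme when a floor of 3 counts is used.

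In osteogenic cells at E16.5, called from Sp7, Ibsp, Ifitm5 and other bone genes, the type I chain Col1a1 and the fibrillar chain Col24a1 stood out. Of 21 members tested, Col24a1, Col23a1 and Col1a1 were higher than in mesenchyme (1.83% of all genes were) and Col8a1, Col8a2 and Col4a5 were lower (1.51% of all genes). Col1a1 stood at 2607 CPM against 1049 CPM (2.49-fold, 2.38 to 2.59), and its partner Col1a2 at 504 CPM against 597 CPM. Col24a1, a fibrillar chain known from bone, stood at 70.2 CPM against 3.27 CPM (21.5-fold, 14.6 to 31.8) and was seen in 31.3% of osteogenic cells, 1.79% of mesenchymal cells and no immune cell (14.46%, 0.813% and 0 once thinned). Col23a1 stood at 104 CPM against 41.7 CPM. Col8a1 stood at 94.7 CPM against 735 CPM, 7.76-fold (6.30 to 9.67) lower. These 83 cells were spread over 6 clusters, with 44 in 1 of them, and Mepe was at 0. Only 38 cells were called osteogenic at E14.5, 32 of them on exactly 2 markers. They spread over 4 clusters, and Bglap and Bglap2 were at 0. They held 53.0 CPM of Col22a1 (12 UMIs), 66.2 CPM of Col11a2 (15 UMIs), 88.3 CPM of Col2a1 and 115 CPM of Col13a1, levels that the 83 cells of E16.5 did not reach (0, 1.06, 1.06 and 5.32 CPM).

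Cells with markers of mural cells, the contractile cells around vessels, differed from mesenchyme at E16.5 by basement membrane chains and, with wider ratios, by Col5a3 and Col14a1. Of 22 members tested, 5 were higher (0.998% of all genes) and 0 lower (0.0974% of all genes). Col4a1 stood at 634 CPM against 110.2 CPM, Col4a2 at 317 CPM against 68.9 CPM, and Col18a1 at 26.2 CPM against 5.79 CPM. Col5a3, the third type V chain, stood at 26.9 CPM against 1.02 CPM (26.4-fold, 14.1 to 51.8), and the fibril-associated Col14a1 at 39.6 CPM against 3.82 CPM (10.4-fold, 7.002 to 15.4). Their Col3a1 level, 2001 CPM, was the highest of any group of 50 or more cells. Rgs5 was seen in 25.9% of these 131 cells, which spread over 7 clusters with 38 cells in 1 of them, so the group was mixed. Endothelial markers stood at 33.7 CPM in it, against 4965 CPM in endothelium, and Col15a1 at 2.24 CPM. Col8a1 and Col11a1 stood at 596 and 255 CPM in the group, against 735 and 297 CPM in mesenchyme. The E16.5 cluster led by Rgs5 and Acta2 held 89.4 and 114 CPM. The part of mesenchymal cells in the values of the group was not tested.

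Muscle cells at E11.5 (50 cells, called from Myod1, Myog and other muscle genes) had 8 of 16 members tested lower than mesenchyme (3.56% of all genes) and 0 higher (3.02% of all genes). Col1a2 stood at 50.2 CPM against 291 CPM and Col9a1 at 13.9 CPM against 101 CPM. Col13a1, a transmembrane collagen of the neuromuscular junction, stood at 22.3 CPM on 8 UMIs against 7.31 CPM, a log2 ratio of 0.90. In 35 glial cells at E14.5, too few to be tested, Col20a1 stood at 46.6 CPM on 7 UMIs, Col28a1 at 6.66 CPM on 1 UMI, Col14a1 at 113 CPM, Col25a1 at 153 CPM and Col18a1 at 273 CPM. The mesenchymal levels at that stage were 0, 0.0625, 2.56, 37.7 and 3.75 CPM. Col15a1 stood at 46.6 CPM on 7 UMIs in these glial cells, against 0.876 CPM in mesenchyme. The E14.5 glial cluster (46 cells) held 500 CPM of Col4a1 and 344 CPM of Col4a2, against 189 and 87.9 CPM in mesenchyme. The chains called higher in endothelium were therefore not confined to it.

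Within mesenchyme, stage was compared next. Between the E11.5 and E14.5 matrices several interstitial fibril chains and the type VI chains were higher, and Col2a1, Col9a1, Col18a1 and Col23a1 were lower. Of 21 members tested, 9 were higher at E14.5 (4.01% of all genes) and 4 lower (2.78% of all genes), with a median log2 ratio of 0.90 for the members and -0.16 for all genes.

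Col1a1 rose from 43.4 CPM to 528 CPM (12.2-fold, 11.6 to 12.8) and Col3a1 from 251 CPM to 1111 CPM (4.44-fold, 4.33 to 4.55). Col5a2 rose from 43.6 CPM to 342 CPM and Col5a1 from 23.5 CPM to 76.9 CPM. Col1a2 stood at 291 CPM and then 467 CPM, short of the fold used for calls. All 3 type VI chains rose together: Col6a1 from 8.05 CPM to 163 CPM (20.2-fold, 18.0 to 22.7), Col6a2 from 9.54 CPM to 200.5 CPM (21.0-fold, 18.9 to 23.4) and Col6a3 from 11.8 CPM to 154 CPM (13.0-fold, 11.8 to 14.4). The fibril-associated Col12a1, which links fibrils in tissues under load, rose from 7.89 CPM to 36.7 CPM, and Col8a1 was the ninth, at 151-fold (76.2 to 353) on 8 UMIs at E11.5. Col4a1 and Col4a2 stood at 96.3 and 42.6 CPM at E11.5 and 189 and 87.9 CPM at E14.5, short of a call.

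Col2a1 and Col9a1 fell over the same interval. Col2a1, the fibrillar chain of cartilage, fell from 112 CPM to 3.63 CPM (30.9-fold, 23.9 to 40.8) and stood at 0.681 CPM at E16.5. Col9a1, which coats type II fibrils, fell from 101 CPM to 2.81 CPM (35.8-fold, 26.7 to 49.1). Col2a1 was seen in 42.7% of mesenchymal cells at E11.5 and in 11.8% of the 51 immune cells, 18.1% and 3.92% once thinned. Col18a1 fell from 30.1 CPM to 3.75 CPM and Col23a1 from 61.4 CPM to 19.95 CPM. Other chains known from cartilage were not called. Col11a1 stood at 85.1 and then 165 CPM, Col27a1 at 31.2 and 49.9 CPM, and Col9a2 at 4.32 and 12.1 CPM. Col9a3 went the other way, from 3.88 to 2.50 CPM. The E11.5 cells came from whole mandibles, which hold tissues that the later buds do not, and this could not be told apart from stage. The lineage rule, which needs at least 2 distinct markers, called only 3 or 4 cells chondrogenic at each stage. A cartilage source of the E11.5 levels was not tested.

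Between E14.5 and E16.5 the short chain collagen Col8a1 changed most. Of 22 members tested, Col8a1, Col8a2, Col12a1 and Col4a5 were higher (1.68% of all genes) and Col13a1 and Col25a1 were lower (0.666% of all genes). Col8a1, which forms hexagonal networks in the cornea and vessel walls, stood at 0.192 CPM on 8 UMIs at E11.5, 29.0 CPM at E14.5 and 735 CPM at E16.5, and the last step was 25.3-fold (23.1 to 27.8). It was seen in 0.125%, 8.25% and 53.2% of mesenchymal cells (0.0583%, 5.13% and 43.3% once thinned). No cell called immune from markers held a Col8a1 UMI at any stage, but the E16.5 immune cluster (29 cells) held 17 (52.3 CPM). The partner chain Col8a2 stood at 4.39, 8.88 and 34.1 CPM in mesenchyme. Col12a1 reached 113 CPM at E16.5. The head-to-head pair Col4a5 and Col4a6 went from 3.94 and 0.5003 CPM to 23.0 and 6.27 CPM, with Col4a6 below the level needed for a test. The transmembrane chains Col13a1 and Col25a1 fell from 20.3 CPM to 1.36 CPM and from 37.7 CPM to 9.81 CPM. Col1a1 stood just short of the fold, at 1049 CPM (1.98-fold, 1.93 to 2.04; log2 ratio 0.98), and Col3a1 stood at 1426 CPM.

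**Figure D3:**
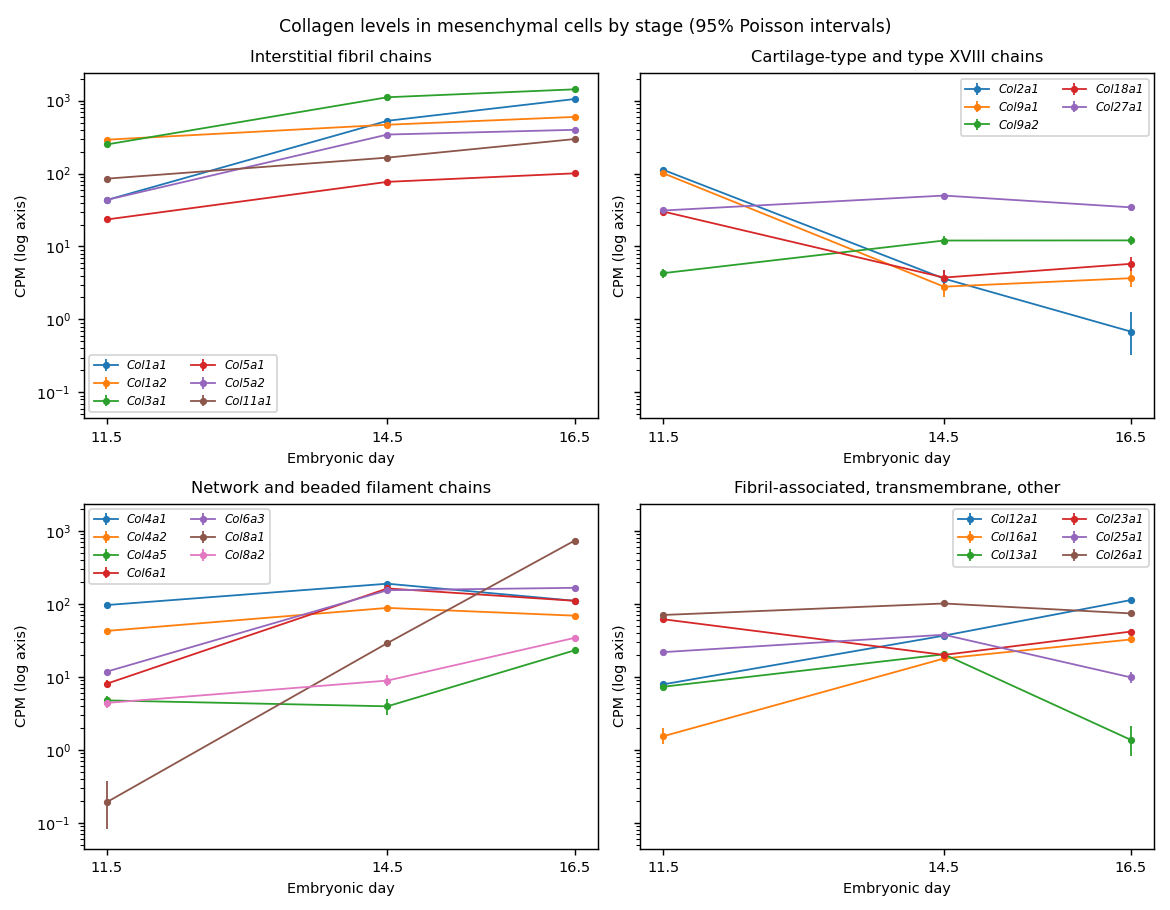
CPM (log axis) of 24 collagen genes in mesenchymal cells at the 3 stages, in 4 panels, with 95% Poisson intervals. Col8a1 climbs from 0.192 to 735 CPM, Col2a1 and Col9a1 drop after E11.5, and Col1a1 and Col3a1 climb at both steps.

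In epithelium, 3 of 16 members tested were higher at E16.5 than at E14.5 (1.61% of all genes) and 0 lower (0.355% of all genes). These were Col11a1 (4.48-fold, 3.81 to 5.29), Col9a3 (4.17-fold, 3.32 to 5.31) and Col8a1 (5.83 to 23.7 CPM). Col8a1 was seen in 4.73% of epithelial cells and 4.31% of endothelial cells at E16.5 (2.20% and 0 once thinned), when mesenchymal Col8a1 was at 735 CPM; once the 5% of cells scoring highest as doublets were dropped, its log2 ratio between the stages was 0.50, no longer a call. The part of free RNA in its epithelial level was not tested. Col17a1 stood just short of the fold (log2 ratio 0.99). In endothelium, 3 of 8 members tested were higher at E14.5 than at E11.5 (2.16% of all genes; 0 lower, 2.84% of all genes): Col1a1, Col1a2 and Col3a1, each at the immune cell level of its stage. At E16.5, 0 of 10 were higher than at E14.5 (1.06% of all genes) and 2, Col1a2 and Col3a1, were lower (0.519% of all genes). The 4 endothelial chains were not called in either interval.

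Partner chains of a trimer were then set against each other within each group. The share of a pair is compared across groups only, not read as the ratio of the chains. How well the transcripts of each chain are captured was not tested. Col1a1 made up 13.0% (12.4 to 13.6) of Col1a1 and Col1a2 UMIs in E11.5 mesenchyme. The share was 53.1% (52.3 to 53.9) in that of E14.5, and in that of E16.5 it reached 63.7% (63.1 to 64.3). It made up 83.8% (82.4 to 85.1) in E16.5 osteogenic cells and 20.9% and 24.3% in epithelium. In E14.5 immune cells it made up 51.4% (39.3 to 63.4), an interval that holds the value of mesenchyme but not that of epithelium at that stage. At E16.5 the immune share was 43.6% (27.8 to 60.4), which holds neither.

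The type IV pair behaved otherwise. Col4a1 made up 61.5% to 69.3% of Col4a1 and Col4a2 UMIs in mesenchyme, 63.0%, 68.7% and 66.7% in endothelium, and 73.6% and 69.5% in epithelium, while the summed type IV level was 144 CPM in E11.5 mesenchyme and 3669 CPM in E16.5 endothelium. Col6a1 likewise made up 44.8% to 46.2% of Col6a1 and Col6a2 UMIs in mesenchyme at all 3 stages. Col5a1 made up 1.64%, 3.90% and 3.49% of Col5a1 and Col5a2 UMIs in endothelium, and 18.4% to 35.0% in mesenchyme. Col9a1 made up 96.3% of Col9a1 and Col9a3 UMIs in E11.5 mesenchyme and 0.108% in E16.5 epithelium.

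**Figure D4:**
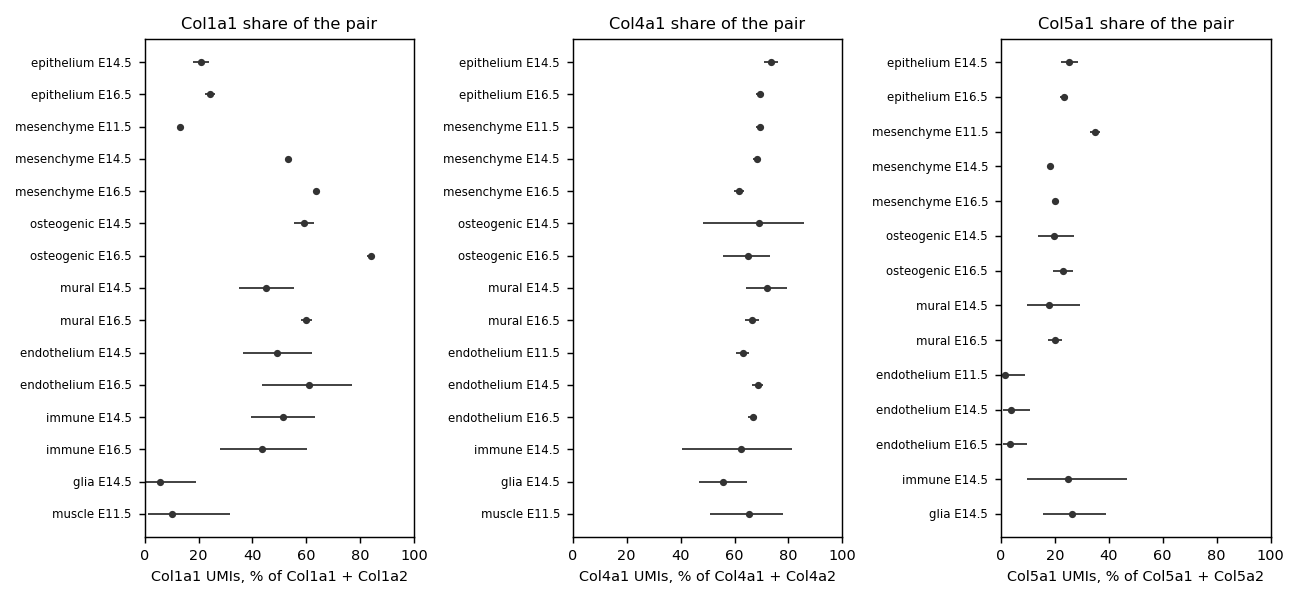
Share of the first chain among the UMIs of the pairs Col1a1 and Col1a2, Col4a1 and Col4a2, and Col5a1 and Col5a2 (percent) in each lineage and stage with at least 20 UMIs of the pair, with 95% binomial intervals. The Col1a1 share spans 5.71% to 83.8%, whereas the Col4a1 share stays between 55.9% and 73.6%; the Col5a1 share is lowest in endothelium.

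Cells were also clustered without any collagen gene, to ask how the members varied inside a lineage. At E16.5 mesenchyme fell into 5 clusters. Cluster 1 (842 cells, led by Lypd1 and Smoc2) held the most Col8a1 (1995 CPM), Col11a1 (578 CPM), Col4a5 (50.1 CPM) and Col4a6 (13.8 CPM). Cluster 3 (587 cells, Pdzrn4 and Sfrp4) held the most Col1a2 (1156 CPM), Col12a1 (226 CPM), Col16a1 (64.8 CPM) and Col9a2 (44.1 CPM). Cluster 7 (302 cells, Rgs5 and Acta2) held the most Col3a1 (3101 CPM), Col6a1 (269 CPM), Col4a1 (535 CPM), Col5a3 (20.4 CPM) and Col14a1 (29.8 CPM). Cluster 4 (418 cells), whose leading genes Smpd3, Panx3 and Ifitm5 are known from bone and dentin-forming cells, held the most Col24a1 (26.5 CPM) and the least Col1a2 (135 CPM), Col3a1 (346 CPM) and Col8a1 (69.0 CPM). Col1a1 varied least of these, from 672 CPM in cluster 1 to 1633 CPM in cluster 7. Cluster 4, with the genes of bone and dentin-forming cells, held 1514 CPM and so was not the highest.

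At E14.5 the 5 mesenchymal clusters differed most in Col9a2, from 0.588 CPM in cluster 1 (Crym, Fgf3) to 68.3 CPM in cluster 8 (Osr1, Ebf2). Col8a1 was highest in cluster 3 (Pitx1, Fgf18) at 107 CPM. In E16.5 epithelium, Col22a1 was highest in cluster 0 (Igfbpl1, Shh) at 36.6 CPM and lowest in cluster 2 (Maf, Alpl) at 1.36 CPM. Cluster 2 held the most Col17a1 (75.9 CPM), Col7a1 (56.1 CPM) and Col14a1 (35.4 CPM). Among the mesenchymal clusters of E11.5 the highest total, 2706 CPM, was in cluster 4. Its cells were shallow (median 1893 UMIs) and led in part by haemoglobin and mitochondrial genes. The other 5 mesenchymal clusters of that stage lay between 1216 and 1460 CPM. The part of depth in this value was not tested.

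**Figure D5:**
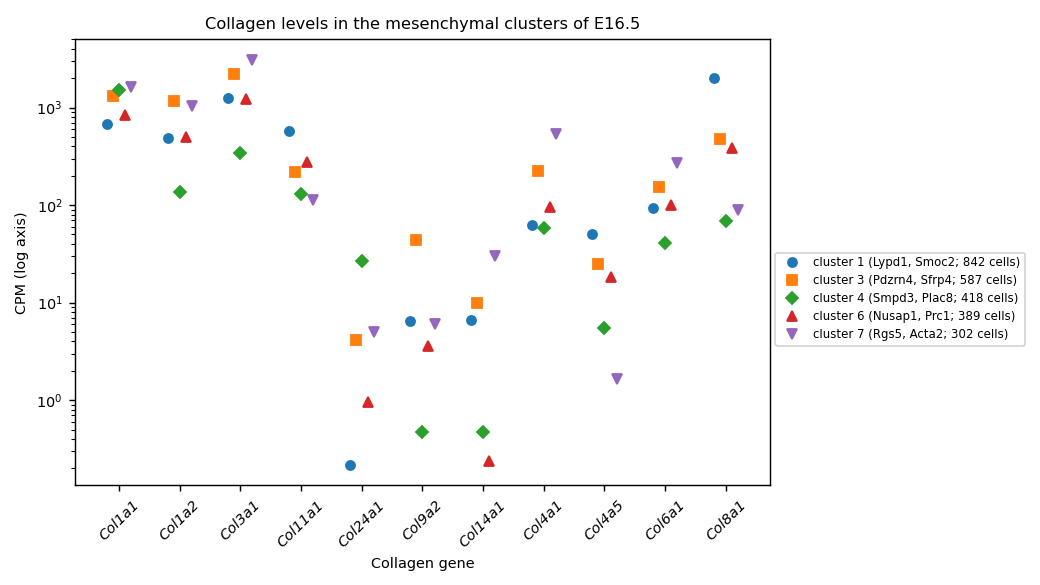
CPM (log axis) of 11 collagen genes in the 5 mesenchymal clusters of E16.5, which were made without collagen genes; zero values are not drawn. Cluster 1 is highest for Col8a1 (1995 CPM), cluster 4 for Col24a1 (26.5 CPM) and cluster 7 for Col3a1 (3101 CPM).

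Collagen chains need enzymes that hydroxylate, fold, trim and crosslink them, and the genes of 5 such lists were counted in the same comparisons. In osteogenic cells at E16.5, 3 of 12 prolyl and lysyl hydroxylases tested were higher than in mesenchyme (1.83% of all genes were) and 0 lower (1.51% of all genes): Plod2, which prepares collagen for bone-type crosslinks, at 308 CPM against 107 CPM, P4ha2 at 108 CPM against 37.0 CPM, and P3h2 at 21.3 CPM against 4.22 CPM. The list's median log2 ratio was 0.71, against 0.00124 over all genes. Of the folding and export list 2 of 9 were higher: Creb3l1, a transcription factor of secretory cells, at 159 CPM against 24.7 CPM, and Fkbp10, a chaperone whose loss causes brittle bones, at 118 CPM against 47.8 CPM. Of the list that joins trimming and crosslinking genes 1 of 6 was higher. Of the receptors 0 of 3 passed in either direction, and of the proteases and their inhibitors 1 of 8 was higher and 1 lower.

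In E16.5 epithelium against mesenchyme, where 4.73% of all genes were higher and 5.61% lower, 2 of 5 receptors tested were higher: Itga2, a subunit of a collagen-binding integrin, at 26.4 CPM against 0.477 CPM, and the receptor kinase Ddr1 at 35.0 CPM against 7.70 CPM. Its relative Ddr2 was lower, at 2.24 CPM against 64.6 CPM. Among the proteases and inhibitors 4 of 6 were lower and 0 higher, such as the gelatinase Mmp2 at 5.82 CPM against 127 CPM. Of the trimming and crosslinking list 3 of 6 were lower, led by Pcolce, which speeds the trimming of procollagen, at 4.27 CPM against 117 CPM. Of the hydroxylases 2 of 11 were lower and of the folding list 1 of 9.

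Endothelium at E16.5, where 9.64% of all genes were higher than in mesenchyme and 9.08% lower, had 2 of 4 receptors higher, Itga1 (73.3 against 2.79 CPM) and Itga2 (110.0 against 0.477 CPM), and Ddr2 lower (1.98 against 64.6 CPM). Of the trimming and crosslinking list 4 of 5 were lower and 0 higher. Of the hydroxylases 1 of 11 was higher and 3 lower, of the folding list 0 of 9 were higher and 1 lower, and of the proteases 1 of 6 was higher and 3 lower. In mesenchyme between E11.5 and E14.5, 4 of 8 proteases and inhibitors were higher (4.01% of all genes) and 0 lower (2.78% of all genes): Mmp9 (0.0479 to 37.0 CPM), Mmp14 (25.8 to 137 CPM), Timp3 (29.1 to 99.3 CPM) and Ctsk (5.37 to 30.6 CPM). Of the hydroxylases 1 of 11 rose, Plod2 (48.5 to 136 CPM). Between E14.5 and E16.5, 2 of 6 genes of the trimming and crosslinking list rose (1.68% of all genes). These were Pcolce (44.2 to 117 CPM) and Adamts3 (3.44 to 17.1 CPM). Of the hydroxylases 0 of 11 passed in either direction.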

How the data were processed

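Single cells were captured with a droplet 3′ kit, and the authors aligned reads with Cell Ranger 4.0.0 to mm10. The deposited matrices hold raw UMI counts per gene and barcode, 1 matrix per stage, and the smallest barcode holds 500 UMIs. Barcodes under 700 genes or over 20% mitochondrial UMIs were dropped, as in the study's methods. A cell took a lineage from at least 2 distinct markers, with 3 times the marker UMIs of any rival lineage. This did not clear mural and osteogenic cells of mesenchyme markers, whose levels are given above. Counts were summed per stage and lineage and given as CPM with exact Poisson intervals. Ratios carry an exact conditional binomial interval, and shares of cells a Clopper-Pearson interval. Calls used 10 CPM added, a mean of at least 10 CPM, groups of at least 50 cells and a log2 ratio of 1. No test was possible. Clusters used scanpy 1.11.5 (2000 variable genes, 20 components, Leiden resolution 0.4). The procedure was tested on simulated data. Named were all members with at least 10 CPM in a group of at least 50 cells and, of each processing list, the 3 largest and 3 smallest ratios; of the latter the text gives only some of those past the fold, and Ctsk was added after its value was seen. Members and lists were chosen with earlier results of these data known. Mmp1a was not in the feature table, which left 57 list genes. Coordinates are GRCm38, from GENCODE vM21.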

Additional observations from a re-analysis of the deposited data

How the results depend on the processing

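The 138 ratios called in the 13 comparisons were recomputed under 11 alternatives (1469 values): none changed direction, 1398 stayed past the fold and 71 did not. Of 272 recomputed counts of members, 241 stayed within 1.5 times and 31 moved, 13 of them with 50 CPM added, which removes genes of low level by construction. With 50 CPM added, epithelium against mesenchyme gave 1 higher and 9 lower at E14.5 and 2 higher at E16.5; endothelium gave 6 lower at E11.5; osteogenic cells gave 1 lower, mural 2 higher and muscle 4 lower. In mesenchyme it gave 2 lower from E11.5 to E14.5, and 1 higher and 0 lower from E14.5 to E16.5. In epithelium it gave 1 higher between stages, and in endothelium 0 higher and then 0 lower. With 1 CPM added, E14.5 epithelium had 4 higher, mural cells 1 lower and muscle 1 higher. With cells thinned to 2000 UMIs, mural cells had 2 lower, muscle 1 higher, mesenchyme 1 lower and epithelium 1 lower between E14.5 and E16.5. With equal weight per cell, muscle had 1 higher, mesenchyme 0 lower, epithelium 5 higher and 1 lower at E16.5, and endothelium 1 higher and 2 lower at E14.5. Endothelium from E11.5 to E14.5 had 3 lower with lineages by cluster and 1 lower at a mean of 1 CPM. From E14.5 to E16.5 it had 1 lower both with 200 genes and with 3 markers, and 1 higher at a mean of 1 CPM. Apart from the added CPM, the causes were not tested. The median over all genes moved by at most 0.08. Summed mesenchymal collagen stayed within 1346 to 1477 CPM, 3769 to 4327 CPM and 5597 to 6126 CPM in stage order. Osteogenic and mural cells by cluster, osteogenic cells with 3 markers, and muscle under the stricter filter, 3 markers, doublet and cluster settings left under 50 cells and were not run. No paired analysis was possible because the matrices do not map cells to samples.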
